A study of Mus musculus with 54 samples.

Results

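The 31 genes described here build cholesterol, take up, move or store sterols, or control that supply, and they were taken by name from a table of 23481 mouse genes. All 31 were found and all 31 passed the filter on low values in the clones. By role they are 8 genes of the mevalonate arm, 11 of the squalene and sterol arm, 6 of SREBP control, 4 of sterol transport and storage, and 2 LXR targets. RNA-seq was made from 4T1 cells, a mouse mammary carcinoma line that spreads from the mammary gland to the lung. The study grew 23 clones from single sorted cells and followed them in a pool for their ability to intravasate, that is, to enter the vessels. Clones E and T are the intravasating ones, and the other 21 are non-intravasating. The specimens are 2 orthotopic tumors, grown in the mammary gland, and 2 lung metastases. Every clone and specimen has 2 libraries, lettered A and B.

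No drug, gene edit or transgene is named for any group. The growth medium given for all samples was high-glucose DMEM with fetal bovine and fetal calf serum, and serum carries lipoprotein cholesterol. Each clone goes back to 1 sorted cell. The labels give neither the mouse strain, age or number of hosts, nor whether carcinoma cells were sorted from the specimens. They also leave unsaid whether libraries A and B are 2 cultures or repeats of 1. A p-value over libraries therefore measures the spread between libraries, which may be technical.

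As background, cells make cholesterol from acetyl-CoA through mevalonate, isoprenoid diphosphates, squalene and lanosterol. When sterols in the endoplasmic reticulum are low, Scap carries the precursor of SREBP2 to the Golgi, where the site 1 protease Mbtps1 begins its release, and SREBP2 then switches on most genes of the route. Insig proteins hold Scap back when sterols are plentiful, and oxysterols at the same time activate LXR, which raises the exporter Abca1 and the ubiquitin ligase Mylip, a brake on lipoprotein uptake.

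The start regions of 5 of the genes are shown because they span the main behaviours described below, from the genes that moved most with the pathway to the one that moved against it. They are RefSeq windows of build GRCm38.p6 that run from 250 bases before to 50 bases after an annotated start, 300 bases in all, written 5′ to 3′ on the gene's strand. Capitals mark CCAAT boxes on either strand (CCAAT or its reverse complement) and, in Hmgcs1, the sterol element TCACNCCAC.
Hmgcs1, chr13:119690101-119690400, plus strand: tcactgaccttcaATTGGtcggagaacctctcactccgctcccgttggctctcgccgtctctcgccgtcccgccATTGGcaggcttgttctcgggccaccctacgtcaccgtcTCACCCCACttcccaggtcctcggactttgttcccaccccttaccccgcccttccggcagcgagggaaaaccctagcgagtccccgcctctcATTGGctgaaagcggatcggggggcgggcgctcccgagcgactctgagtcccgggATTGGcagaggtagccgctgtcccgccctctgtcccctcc
Idi1, chr13:8885356-8885655, plus strand: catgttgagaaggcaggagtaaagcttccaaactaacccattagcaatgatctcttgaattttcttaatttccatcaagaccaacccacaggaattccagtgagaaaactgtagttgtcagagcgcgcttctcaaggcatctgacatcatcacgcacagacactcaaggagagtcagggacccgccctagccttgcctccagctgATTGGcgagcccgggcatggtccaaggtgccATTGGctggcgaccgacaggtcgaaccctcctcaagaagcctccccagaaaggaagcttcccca
Cyp51, chr5:4104648-4104947, minus strand: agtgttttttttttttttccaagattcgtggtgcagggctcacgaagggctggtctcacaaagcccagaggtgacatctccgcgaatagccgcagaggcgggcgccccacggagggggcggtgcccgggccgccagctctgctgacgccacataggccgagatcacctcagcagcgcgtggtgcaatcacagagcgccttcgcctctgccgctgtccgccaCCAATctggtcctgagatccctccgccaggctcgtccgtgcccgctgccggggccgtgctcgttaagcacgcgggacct
Srebf2, chr15:82147019-82147318, plus strand: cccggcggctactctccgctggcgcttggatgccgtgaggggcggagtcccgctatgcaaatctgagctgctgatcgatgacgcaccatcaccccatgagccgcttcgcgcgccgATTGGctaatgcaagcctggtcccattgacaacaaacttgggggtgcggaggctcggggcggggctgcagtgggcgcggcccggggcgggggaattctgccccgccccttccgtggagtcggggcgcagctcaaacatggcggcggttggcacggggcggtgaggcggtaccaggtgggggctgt
Abca1, chr4:53159846-53160145, minus strand: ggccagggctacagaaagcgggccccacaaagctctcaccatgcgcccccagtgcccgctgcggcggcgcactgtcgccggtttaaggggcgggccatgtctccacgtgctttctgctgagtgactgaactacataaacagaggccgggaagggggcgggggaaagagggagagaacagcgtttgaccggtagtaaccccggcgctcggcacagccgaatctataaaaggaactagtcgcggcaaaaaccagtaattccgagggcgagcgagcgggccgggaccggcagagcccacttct

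Of the 31 genes, 26 matched at least 1 window, among them 16 of the 19 enzymes of synthesis. The letters TCACNCCAC, searched on both strands, were found in 1 of these 16 enzymes, Hmgcs1, where they begin at position -137 from the start base. The same letters lie in 1.242% of the 32851 windows in the RefSeq table. CCAAT lies in 15 of the 16 enzymes, or 15 of their 19 windows, against 37.4% of all windows. Hmgcs1 holds 4 such boxes, Idi1 2, Cyp51 1 and Srebf2 1, and the Abca1 window holds none. GGGCGG, searched the same way, lies in 15 of the 19 windows against 35.7% of all. A match of letters is a description and not a measured site, and a window without a match says only that these letters are not in it.

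Depth per library, recovered from the deposited values, was 15581390 to 31609870 reads for E and T, 8849257 to 27304778 for the other clones, 12183058 to 17369960 for tumors and 16327693 to 20368740 for lung metastases. Among lung libraries, those lettered A had 20278 and 19868 genes with a read and those lettered B had 16604 and 16972, although the A libraries had fewer reads. Levels below are normalized read counts, the reads of a gene scaled to the library by the authors. Differences are on their log2 scale, which is compressed for low genes because a gene without reads sits at 5.03. For clones the error is the SD over 2 libraries.

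The clones differed widely in most genes of the synthesis route, and they ranked in a similar order for most enzymes of it. Hmgcs1, the HMG-CoA synthase that makes the precursor of mevalonate, was lowest in clone S at 388 ± 19.8 counts and highest in clone P at 9639 ± 283 (SD, n = 2 libraries each), 24.8-fold. Its median over the 23 clones was 3614 counts. S stood alone at the bottom, since the next clone, F, had 1421 counts. Above it the order climbed through E and B to L, M, U and P, and in 15 of 22 neighbouring pairs the libraries of both clones overlapped. Neighbours in that order therefore mostly did not differ beyond their spread, whereas the ends did.

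**Figure D1:**
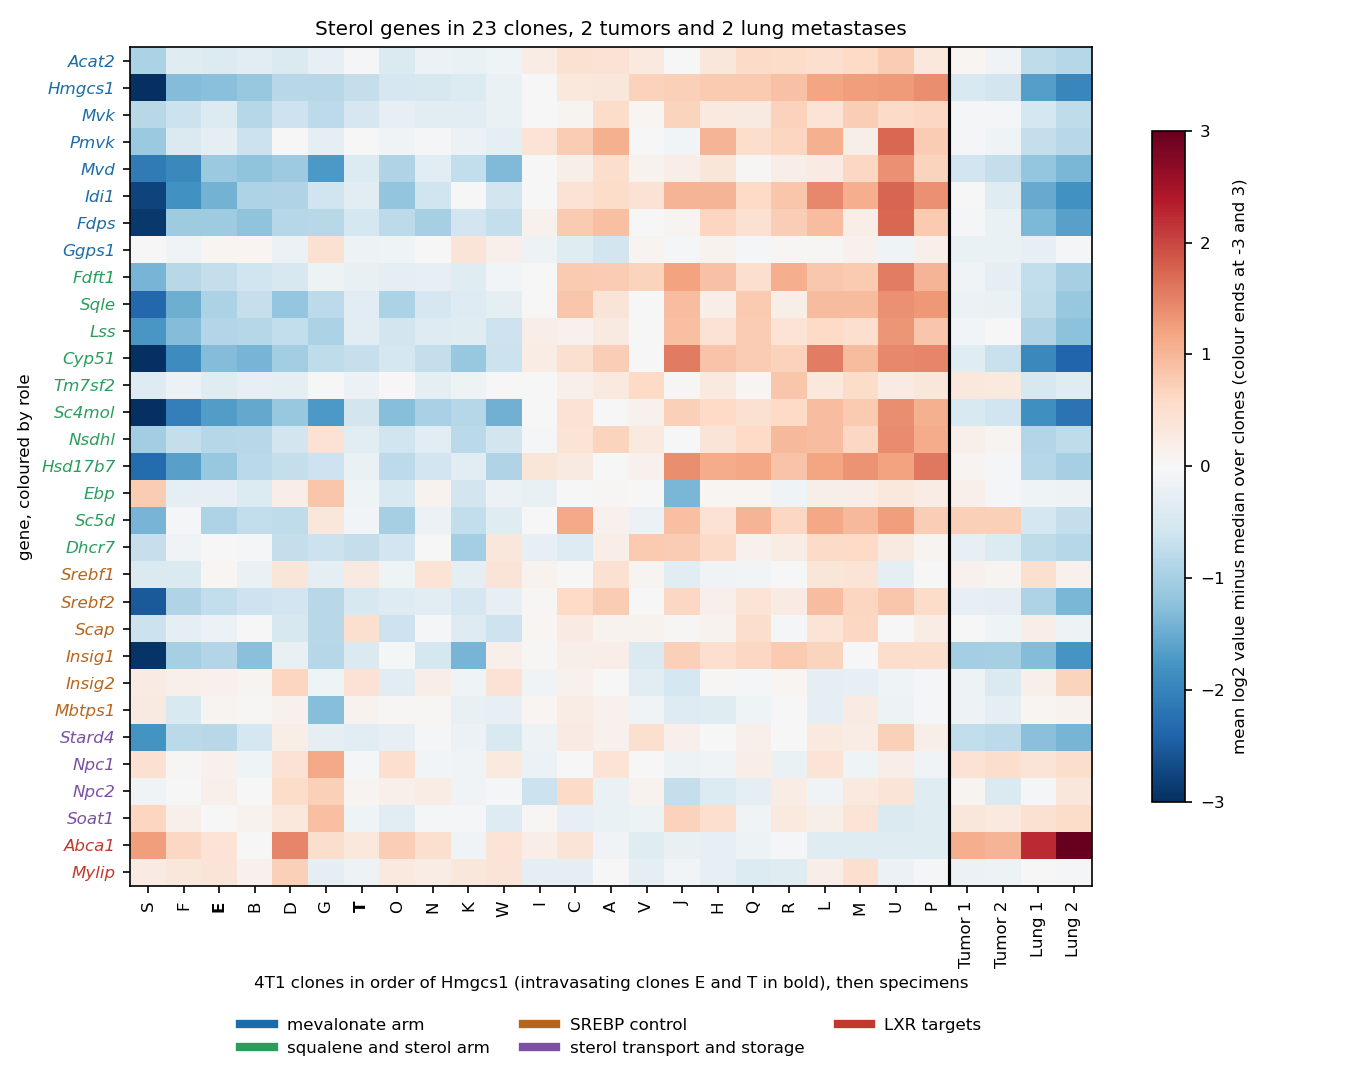
Mean log2 value of each of the 31 genes (rows, coloured by role) in 23 clones in order of Hmgcs1 and in 4 specimens (columns), minus the gene's median over clones. Blue on the left and red on the right in most enzyme rows show that clone S was low and clones U and P high for gene after gene, while Abca1 runs the other way.

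Cyp51, the lanosterol demethylase, had the widest range of the 31 genes, 4.85 on the log2 scale. Its counts ran from 415 ± 43.2 in S to 13702 ± 265 in J, 33.1-fold. Fdps, which makes farnesyl diphosphate, ran from 110 ± 1.48 in S to 4089 ± 414 in U, 37.0-fold. The isoprenoid isomerase Idi1 ran from 136 ± 17.6 in S to 4486 ± 171 in U, 33.0-fold. Clone S was thus the lowest for each of them, and its libraries lay far below those of the highest clone.

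Sc4mol, the sterol C4-methyl oxidase that the annotation now calls Msmo1, ran from 415 ± 56.4 in S to 10513 ± 1199 in U. Hsd17b7, which acts after it in removing those methyl groups, ran from 251 ± 35.3 in S to 4567 ± 268 in P. Sqle, the squalene epoxidase, ran from 862 ± 74.3 in S to 12163 ± 1003 in U. Over the 19 enzymes, clone S was among the 3 lowest clones in 16, F in 10 and E in 8. At the other end, U was among the 3 highest in 13, P in 10 and L in 8.

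The smallest ranges on the log2 scale belonged to Srebf1, Ggps1, Mylip and Insig2. That scale is compressed for low counts, and as a fold of counts Mylip, at 2.90, was wider than Soat1 at 2.58. Srebf1, the SREBP that serves mainly fatty acid synthesis, ran only from 858 to 1634 counts, a range of 0.88 on the log2 scale. Ggps1, which makes geranylgeranyl diphosphate for protein prenylation, ran from 424 to 900 counts, a range of 1.00. Insig2 ran from 775 counts in J to 1809 in D, and Mylip from 83.0 in Q to 241 in D. None of these 4 encodes an enzyme on the direct line to cholesterol.

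All 31 genes differed among clones by limma's moderated F-test, but so did 95.1% of the 13637 genes tested, so that count says little about these genes. Their spread between clones was larger in size than that of most genes tested. The sets compared here were not matched for level, and the log2 scale is compressed for low genes. On the log2 scale, the SD between clones had a median of 0.538 for these genes and 0.288 for all genes tested, while the SD between libraries had medians of 0.136 and 0.144. Of the 31 genes, 29 (93.5%) spanned 1 or more on that scale, against 63.3% of all genes. The SD between clones of Cyp51 stood at percentile 99 of all genes and that of Hmgcs1 at 98.2, whereas Ggps1 stood at 19.9.

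**Figure D2:**
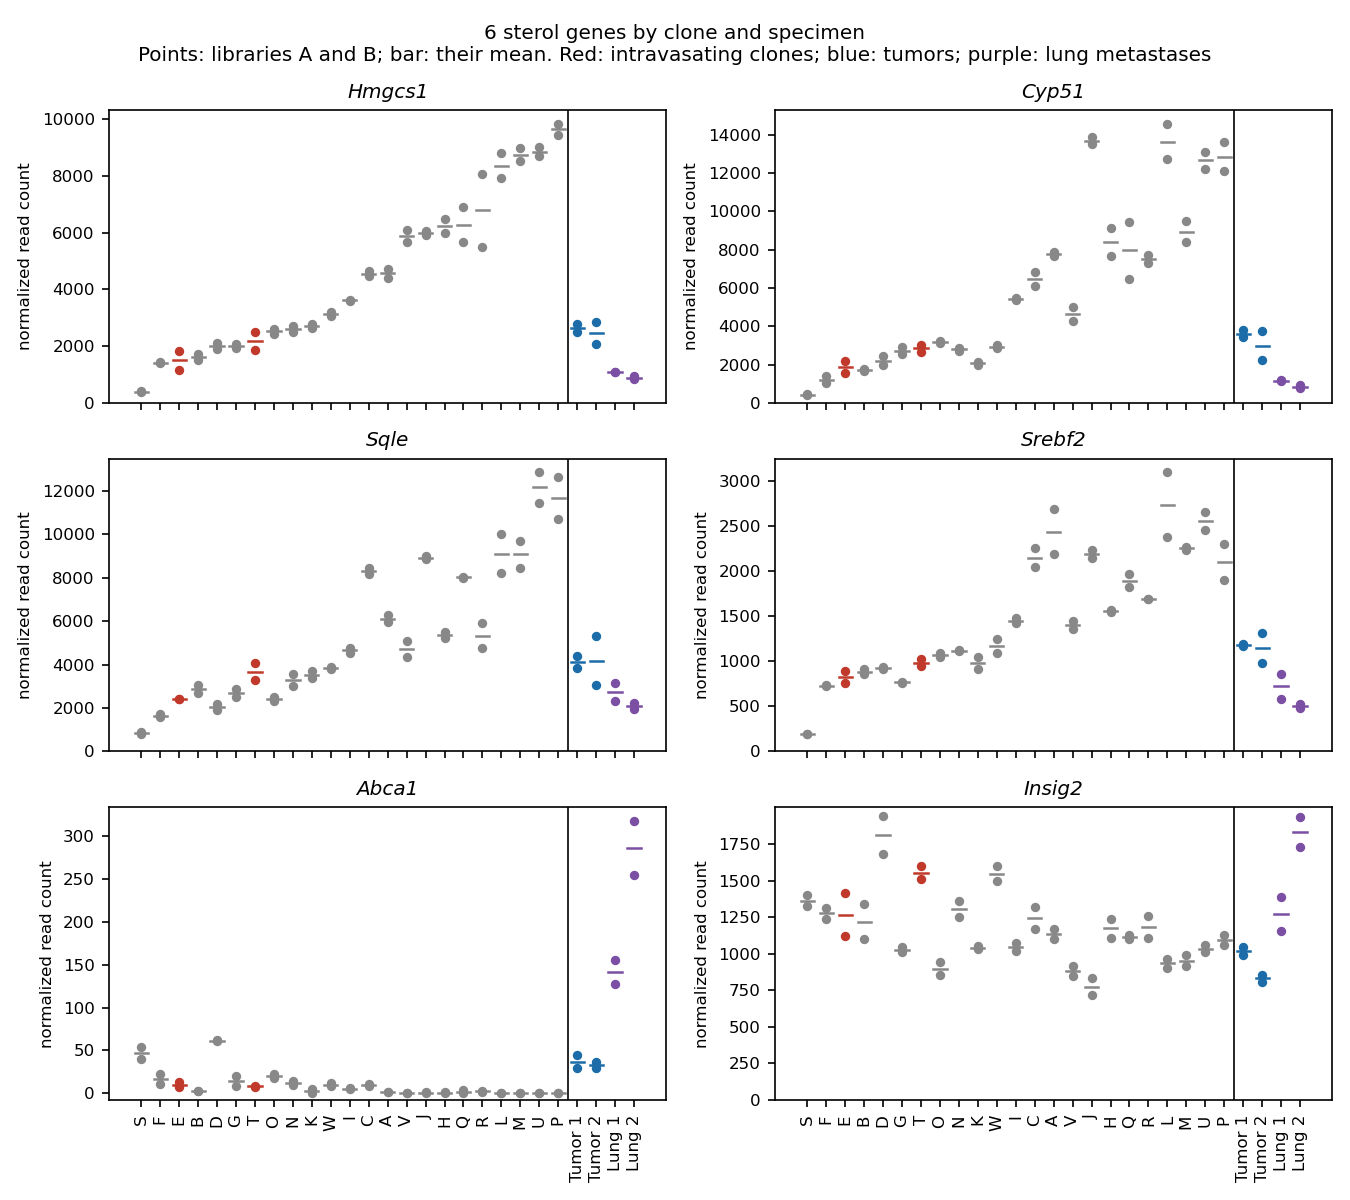
Normalized read counts of Hmgcs1, Cyp51, Sqle, Srebf2, Abca1 and Insig2 (vertical axes, linear) in each library of 23 clones in order of Hmgcs1, 2 tumors and 2 lung metastases; points are libraries and bars their means. Cyp51, Sqle and Srebf2 climb with Hmgcs1, while Abca1 is highest in clones S and D and in the lung metastases, at 142 and 286 counts.

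Hmgcs1 was then set against each of the other 30 genes over the 23 clone means, with a permutation test of 100000 resamples adjusted over the 30 relations by Benjamini-Hochberg. Of these, 20 rose with Hmgcs1, 2 fell as it rose and 8 did not pass. The test was not run on other genes, so the share of all genes that would pass is not known. Idi1 followed it most closely (r = 0.966, rho = 0.963), then Cyp51 (r = 0.962, rho = 0.930) and Sc4mol (r = 0.960, rho = 0.958). For these 3 the permutation p was 1e-05, the smallest that 100000 resamples can give, and the adjusted p was 1.76e-05. Without P and S, the clones farthest from the median of Hmgcs1, the r values were 0.953, 0.941 and 0.951. The relation did not rest on those 2 clones.

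Of the 6 control genes Srebf2, Insig1 and Scap rose with Hmgcs1, and of the 4 transport and storage genes Stard4 did. Srebf2, which encodes SREBP2, ran from 197 ± 1.24 counts in S to 2733 ± 514 in L and followed Hmgcs1 with r = 0.946 (rho = 0.905, adjusted permutation p = 1.76e-05). Insig1, which retains Scap in the endoplasmic reticulum, ran from 439 ± 57.4 in S to 6621 in R with r = 0.881 (rho = 0.825, adjusted permutation p = 1.76e-05). Stard4, a cytosolic sterol carrier, ran from 160 ± 6.92 in S to 1213 ± 110 in U with r = 0.883 (rho = 0.787, adjusted permutation p = 1.76e-05). Scap followed more loosely, with r = 0.641 (rho = 0.647, adjusted permutation p = 0.00151).

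Abca1, the transporter that loads cholesterol onto lipoproteins, ran against the route. It had 0 reads in both libraries of clones L, M, P, U and V, and 61.7 and 61.0 counts in the libraries of D and 39.3 and 53.7 in those of S. Its median over the clones was 2.29 counts, so most clones hardly expressed it. Its r with Hmgcs1 was -0.81 (rho = -0.86, adjusted permutation p = 3.16e-05) and -0.74 without P and S. Insig2, which unlike Insig1 is not known as a strong SREBP target, also went against Hmgcs1, with r = -0.51 (rho = -0.54, adjusted permutation p = 0.0196). Clone D, with 1998 counts of Hmgcs1, had the highest Insig2, Abca1 and Mylip of the 23.

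The 8 genes whose relation with Hmgcs1 did not pass were Srebf1, Ggps1, Mbtps1, Ebp, Mylip and the lysosomal and storage genes Npc1, Npc2 and Soat1. Npc1 and Npc2 export cholesterol from lysosomes, and Soat1 esterifies it for storage. Their r values were -0.33, -0.18 and -0.26, with adjusted permutation p of 0.156, 0.475 and 0.260. Clone G had the highest count of all 3, at 928, 10164 and 4122. Ebp was the enzyme of the sterol arm that stood outside the order. It isomerizes a late sterol double bond, and it was high in S at 798 ± 31.5 counts, highest in G at 838 and lowest in J at 134 ± 16.0, although J was the highest clone for Cyp51. Among the 19 enzymes the median r over all 171 pairs was 0.85, and 115 pairs were above 0.7.

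**Figure D3:**
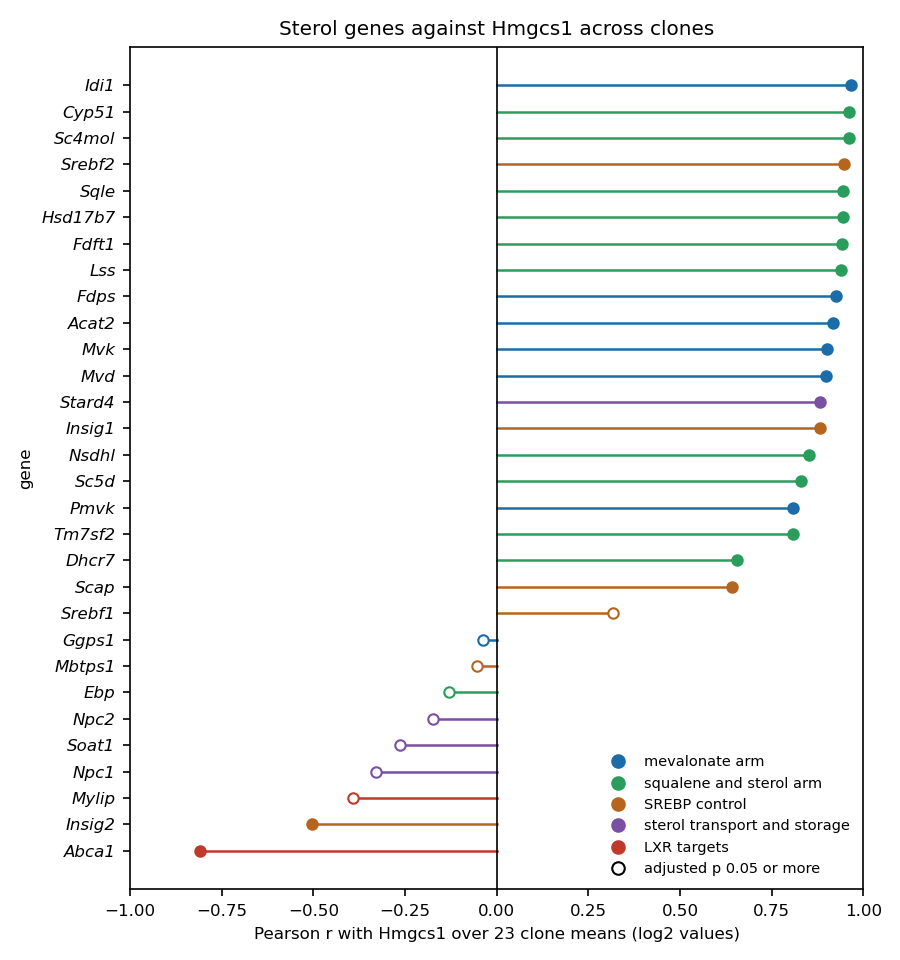
Pearson r with Hmgcs1 over 23 clone means (horizontal axis) for the other 30 genes, ordered and coloured by role; open points had an adjusted permutation p of 0.05 or more. The enzymes crowd above 0.8 apart from Dhcr7, Ggps1 and Ebp, and Abca1 stands alone at -0.81.

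Ranked among 13613 genes by r with Hmgcs1, 8 of the first 10, 11 of the first 20 and 15 of the first 50 were among the 31. Dhcr7, the reductase of the last step of one branch, came at rank 614 with r = 0.655, and Scap at 706. Genes outside the list with an r close to that of the enzymes were Fads2 (0.936), a fatty acid desaturase, and Elovl6 (0.918), a fatty acid elongase. Aacs (0.908), which makes acetoacetyl-CoA from acetoacetate, and Scd2 (0.902), a stearoyl-CoA desaturase, were also there. Pdp2 (0.922), a phosphatase of the pyruvate dehydrogenase complex, and F2rl1 (0.919), a protease-activated receptor, are not usually counted with sterol genes. The gene 4930483K19Rik (0.915) shares 381 of the 10787 exon bases of Lss on the opposite strand. Without a stated strand setting, reads over those shared bases cannot be told apart. The lowest r values belonged to Thbs2 (-0.914), Fam210b (-0.874), Dnase2b (-0.871), A530013C23Rik (-0.868) and Aox1 (-0.867).

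Other lipid genes were described by list, with r over the same 23 clones and no test. The 14 genes of fatty acid synthesis had a median r of 0.72 with Hmgcs1, from -0.36 to 0.94. The 6 measured of 8 LXR, efflux and oxysterol genes had a median of -0.64. The 14 genes of the non-sterol isoprenoid branch had a median of 0.48, the 11 genes of the sensing and degradation machinery 0.28, the 6 partners of sterol enzymes 0.30, the 7 lipoprotein receptor and lysosomal lipase genes 0.07 and the 12 measured of 13 sterol transfer and ester genes -0.09.

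Other measures moved with Hmgcs1 over the same clones. Its r was -0.50 with the log10 of a clone's reads (rho = -0.63, adjusted permutation p over 5 relations = 0.0309). It was 0.79 with the summed carcinoma epithelium markers (rho = 0.80, adjusted permutation p = 5e-05), a sum that ran from 16654 to 89190 counts over clones. It was -0.80 with the summed fibroblast markers (rho = -0.76, adjusted permutation p = 7.5e-05), a sum from 119 to 1803 that Pdgfra led. It was -0.43 with leukocyte markers, at 5.14 to 26.5 counts (rho = -0.55, adjusted permutation p = 0.0476), and -0.09 with proliferation markers (rho = -0.10, adjusted permutation p = 0.677). Without P and S these 5 r values were -0.62, 0.75, -0.75, -0.46 and -0.13. The part of depth or of these markers in the order of the clones was not tested.

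The study set the intravasating clones against the others to find genes tied to intravasation. E lay near the low end of the order for most of the route and T just below its middle, and both lay inside the range of the other clones for Hmgcs1. Hmgcs1 was at 1842 and 1164 counts in the libraries of E and at 2497 and 1875 in those of T, against a median of 4555 over the 21 non-intravasating clones. For Hmgcs1, E ranked 3 and T ranked 7 from the lowest of the 23. For Fdps the ranks were 3 and 11, for Sqle 4 and 10, and for Pmvk 5 and 13. Clones S, F, B, D and G, all non-intravasating, were lower than T, so low synthesis genes were not confined to the intravasating pair.

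With 1 value per clone, 2 against 21, none of the genes tested passed limma's test at an adjusted p of 0.05, with 0% of 13637 genes called higher and 0% lower. At an unadjusted p under 0.05 there were 109 genes, none of the 31 among them. Hmgcs1 had the largest difference of the 31, -1.04 ± 0.74 (SE) on the log2 scale, followed by Cyp51 at -0.96 ± 0.86, Idi1 at -0.92 ± 0.79 and Sc4mol at -0.78 ± 0.82, each with a limma adjusted p of 0.9999. The median difference of the 31 genes was -0.429 against 0.004 over all genes, and 24 of 31 lay below zero against 49.1% of all genes. Leaving out E moved that median to -0.234 and leaving out T to -0.517.

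The series looks for genes that set both clones apart from a majority of the others. By that rule, with limma contrasts over libraries, a gene counts when E and T each differ in the same direction from at least 11 of the 21. Of the 31 genes, 13 were lower and 0 higher, against 1.61% of all genes lower and 2.14% higher. The 13 were Hmgcs1, Mvk, Idi1 and Fdps of the mevalonate arm, Fdft1, Sqle, Lss, Cyp51, Sc4mol and Nsdhl of the sterol arm, and Srebf2, Insig1 and Stard4. Hmgcs1 was lower in E than in 18 clones and in T than in 13, and Stard4 than in 18 and 12. The rule weighs each clone by the spread between its libraries and not by the spread between clones, and it sets E and T against the same 21 clones. Most of the 31 genes moved together across clones and spread more between clones than most genes did. The 13 are therefore not 13 separate results. Without library B of T the count of lower genes was 7, and with a difference of at least 0.5 it was 8.

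**Figure D4:**
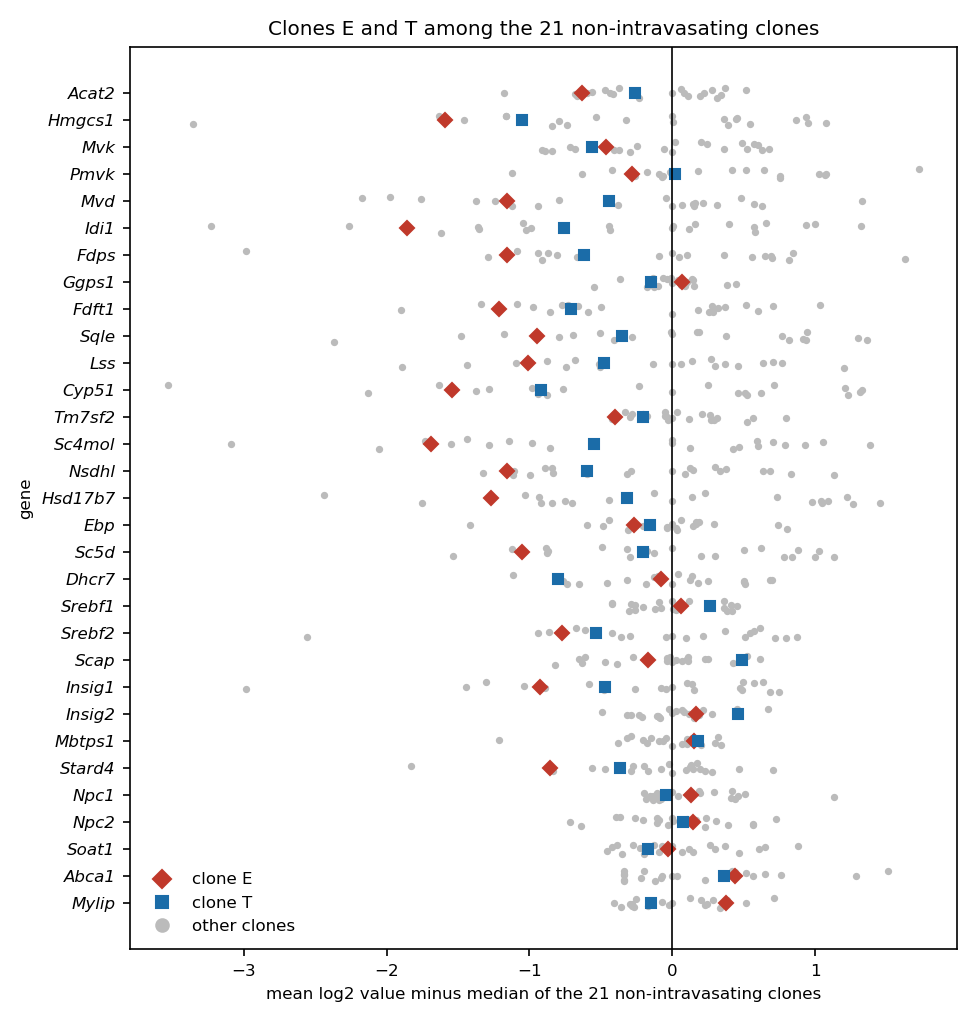
Mean log2 value of each of the 31 genes in clone E (red diamonds), clone T (blue squares) and the 21 non-intravasating clones (grey points), minus the median of those 21. E and T lie left of zero for most enzymes, inside the range of the other clones, and E lies left of T for most of them.

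The 2 intravasating clones also differed from each other. Over libraries, with the spread shared by all 46 clone libraries, 17 of the 31 genes were lower in E than in T and 2 were higher, against 13.4% and 15.3% of all genes. The median difference was -0.376 against 0.007 over all genes. Since most of the 31 genes moved together across clones, the 17 are not separate results either. Sc4mol was at 1269 and 1117 counts in E and 3104 and 2355 in T, a difference of -1.14 ± 0.14 (SE; limma adjusted p = 2.21e-07). Idi1 was at 497 and 393 in E and 1143 and 907 in T, a difference of -1.10 ± 0.19 (limma adjusted p = 4.59e-05). In both genes the libraries of the clones lay apart.

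Hsd17b7 was at 677 and 602 counts in E and 1321 and 1272 in T, a difference of -0.95 ± 0.12 (limma adjusted p = 4.54e-07). Sc5d, a desaturase of the last steps, was at 768 and 678 in E and 1502 and 1210 in T, a difference of -0.85 ± 0.15 (limma adjusted p = 3.86e-05). Mvd, which makes isopentenyl diphosphate, was at 194 and 191 in E and 411 and 301 in T (-0.71 ± 0.19, limma adjusted p = 0.00481). In each of these 3 genes the libraries of E and T did not overlap. They, Sc4mol and Idi1 were given in full because their differences were large, which makes such a gap likely. Overlap between E and T was not counted over all genes. Of the mevalonate arm 5 of 8 genes were lower in E, and of the sterol arm 8 of 11 were lower and 1 higher.

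Scap was lower in E, at 888 and 1122 counts against 1708 and 1519 in T (-0.66 ± 0.13, limma adjusted p = 0.000316). Cyp51 was at 2170 and 1538 in E and 3034 and 2669 in T (-0.62 ± 0.15, limma adjusted p = 0.00241). Dhcr7 went the other way, at 1036 and 1424 in E and 715 and 714 in T (0.72 ± 0.13, limma adjusted p = 6.68e-05), which placed T among the 3 lowest clones for it. Mylip was the other gene higher in E (0.53 ± 0.19, limma adjusted p = 0.0349), a call that was lost without the filter on low values and without library A of E, library B of E or library A of T. Of the fatty acid genes 8 of 14 were lower in E and none higher, with Me1 at -0.87, Scd2 at -0.78 and Lpin1 at -0.76.

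In the specimens, RNA of carcinoma cells and of other cells is mixed, and fewer cells of a type and less RNA per cell cannot be told apart. Summed macrophage markers were at 616 and 814 counts in the tumors and 1103 and 2370 in the lung metastases, against a median of 119 in the clones. Lyz2 led that sum, at 517 counts in Tumor_1, 337 in Tumor_2, 851 in Lung_1 and 1831 in Lung_2. Cd68 was at 235, 196, 139 and 226 counts in the same order and Csf1r at 36.1, 55.5, 36.2 and 92.5, so the macrophage markers did not all move together. The clones also express Cd68, with a median of 96.2 counts and 488 in the highest, and Csf1r reached 129 in a clone. Emr1, C1qa and C1qb, like Lyz2, had at most 6.48 counts in any clone and were higher in both lung metastases than in both tumors. Fibroblast markers were at 681 to 781 in the tumors and 1663 to 4479 in the lung metastases, leukocyte markers at 66.3 to 71.4 and 101 to 257, endothelial markers at 22.9 to 28.6 and 50.7 to 57.4. Pdgfra led the fibroblast sum with 1492 counts in Lung_1 and 3394 in Lung_2. The clones also express it, with a median of 326 counts and 1756 in the highest clone. In Lung_1 Col1a1 at 45.5 and Pdgfrb at 5.0 were not above the tumors. Of the 6 fibroblast markers tested, 1 was higher in lung metastases than in tumors by limma. The same held for 2 of 6 macrophage, 2 of 4 leukocyte and 0 of 3 endothelial markers tested. Carcinoma epithelium markers were at 27071 to 30148 and 15908 to 22522. Of these 6 markers, 4 were lower in lung metastases than in tumors by limma and 0 were higher. Their median difference was -1.52 on the log2 scale, but the members did not all move together. Epcam was at 3574 and 3173 counts in the tumors and 631 and 473 in the lung metastases, whereas Krt8 was at 5026 and 4678 in the tumors and 7542 and 5762 in the lung metastases. Lung epithelium markers stayed at 20.3 to 42.3 in the tumors and 28.8 to 35.1 in the lung metastases, near the clones' median of 26.6, with Sftpa1 at 0 in both tumors. Of the erythroid markers, Hba-a1 and Hbb-b1 were at 0 in every clone and specimen, but Alas2 was not. It was at 86.9 and 113 counts in the tumors and 78.3 and 79.3 in the lung metastases. Its median over the clones was 44.0 and its highest clone had 83.4. The part of other cells in the results that follow was not tested.

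The 2 tumors lay within the range of the clones for the synthesis genes. Hmgcs1 was at 2635 ± 204 counts in Tumor_1 and 2460 ± 528 in Tumor_2 (SD, n = 2 libraries), with 7 clones below both. With 1 value per clone or specimen, 0 of the 31 genes were called higher and 0 lower by limma, against 5.71% and 1.75% of 14235 genes. At an unadjusted p under 0.05 there was 1, Abca1. Abca1 was at 44.6 and 28.9 counts in Tumor_1 and 29.1 and 36.2 in Tumor_2, above 21 of the 23 clones, with a difference of 0.87 ± 0.36 (SE; limma adjusted p = 0.144). The next largest differences were Insig1 at -0.78 ± 0.59, Stard4 at -0.64 ± 0.36 and Sc5d at 0.61 ± 0.52, none past the test. The median difference of the 31 was -0.117 against 0.046 over all genes, and 0.008 after quantile normalization.

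The lung metastases stood lower than most clones for the synthesis genes and far higher for Abca1. Abca1 was at 156 and 127 counts in Lung_1 and 318 and 255 in Lung_2, above all 23 clones, whose highest, D, had 61.4. The difference from the clones was 2.46 ± 0.36 on the compressed log2 scale (SE; limma adjusted p = 8.83e-06). Of the 31 genes 1 was higher and 2 lower, against 12.4% and 6.34% of all genes, so these counts of calls do not set the 31 apart. The median difference was -0.863 against 0.064. Stard4, at 205 and 327 counts in Lung_1 and 220 and 246 in Lung_2, differed by -1.20 ± 0.36 (limma adjusted p = 0.0181). Acat2, the acetoacetyl-CoA thiolase that starts the route, was at 1395 and 1562 in Lung_1 and 1279 and 1476 in Lung_2 (-0.87 ± 0.30, limma adjusted p = 0.0418). Under quantile normalization Acat2 did not pass (limma adjusted p = 0.0698). Both lower calls were lost without Lung_1, without Lung_2 and with the B libraries only.

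Cyp51 had a larger difference, -2.04 ± 0.83, but did not pass (limma adjusted p = 0.0874), beside an SD of 1.26 between clones. For Hmgcs1, Cyp51 and Srebf2, 22 of the 23 clones were above both lung metastases, and clone S was the exception. The comparisons of tumors and of lung metastases with clones share the clones.

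Lung metastases had less mRNA of the synthesis route than orthotopic tumors and more of Abca1 and Insig2. In a fit of the specimens alone, 2 against 2, 20 of the 31 genes were lower and 2 higher in lung metastases by limma, against 14.8% lower and 16.6% higher of 13702 genes. The median difference was -0.622 against 0.019 over all genes. By role, 7 of 8 genes of the mevalonate arm and 10 of 11 of the sterol arm were lower, all but Ggps1 and Ebp. Srebf2 and Insig1 of the control genes and Stard4 of the transport genes were lower too. In 16 genes all 4 lung libraries lay below all 4 tumor libraries, and in 3, Abca1, Insig2 and Mbtps1, above. Overlap was not counted over all genes, so whether 16 and 3 of 31 is unusual is not known.

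Cyp51 was at 3420 and 3802 counts in Tumor_1, 3733 and 2230 in Tumor_2, 1171 and 1145 in Lung_1 and 753 and 916 in Lung_2. The difference, lung minus tumor, was -1.65 ± 0.17 (SE; limma adjusted p = 0.000339). Sc4mol was at 2517 and 3274, 3715 and 1830 in the tumors and 998 and 1121, 748 and 876 in the lung metastases (-1.50 ± 0.14, limma adjusted p = 0.000223). The lung libraries of both genes lay below every tumor library, although the libraries of Tumor_2 differed much from each other.

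Idi1 was at 1179 and 1436 counts in Tumor_1, 1366 and 705 in Tumor_2, 427 and 400 in Lung_1 and 315 and 331 in Lung_2 (-1.48 ± 0.16, limma adjusted p = 0.000415). Fdps was at 1183 and 1116, 1255 and 840 in the tumors and 458 and 414, 307 and 388 in the lung metastases (-1.35 ± 0.13, limma adjusted p = 0.000274). Hmgcs1 was at 2491 and 2779, 2834 and 2087 in the tumors and 1100 and 1096, 827 and 942 in the lung metastases (-1.31 ± 0.13, limma adjusted p = 0.000289). These 3 genes of the mevalonate arm showed the same picture, with no overlap between the groups.

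Sc5d was at 2328 and 2407 counts in Tumor_1, 2925 and 1921 in Tumor_2, 864 and 1090 in Lung_1 and 892 and 803 in Lung_2 (-1.33 ± 0.11, limma adjusted p = 0.000145). Lss, the lanosterol synthase, was at 1184 and 1178, 1195 and 1299 in the tumors and 562 and 728, 498 and 505 in the lung metastases (-1.02 ± 0.13, limma adjusted p = 0.000912). Srebf2 was at 1190 and 1163, 1311 and 980 in the tumors and 582 and 862, 482 and 529 in the lung metastases (-0.88 ± 0.15, limma adjusted p = 0.00337). None of these 3 overlapped between the groups either.

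Abca1 was higher in the lung metastases by 1.59 ± 0.22 (limma adjusted p = 0.00146), from the counts given above. Insig2 was at 994 and 1043 counts in Tumor_1, 854 and 809 in Tumor_2, 1388 and 1155 in Lung_1 and 1728 and 1933 in Lung_2 (0.69 ± 0.17, limma adjusted p = 0.0172). The call of Insig2 was lost without the filter on low values (limma adjusted p = 0.0857), without Tumor_1 (0.079), without Tumor_2 (0.16) and with the B libraries only (0.259). The 2 genes that went against Hmgcs1 across the clones were thus the 2 that were higher here. Npc1 differed by -0.02 ± 0.11, Soat1 by 0.18 ± 0.11, Npc2 by 0.32 ± 0.19, Scap by 0.09 ± 0.13 and Srebf1 by 0.20 ± 0.14, none past the test.

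**Figure D5:**
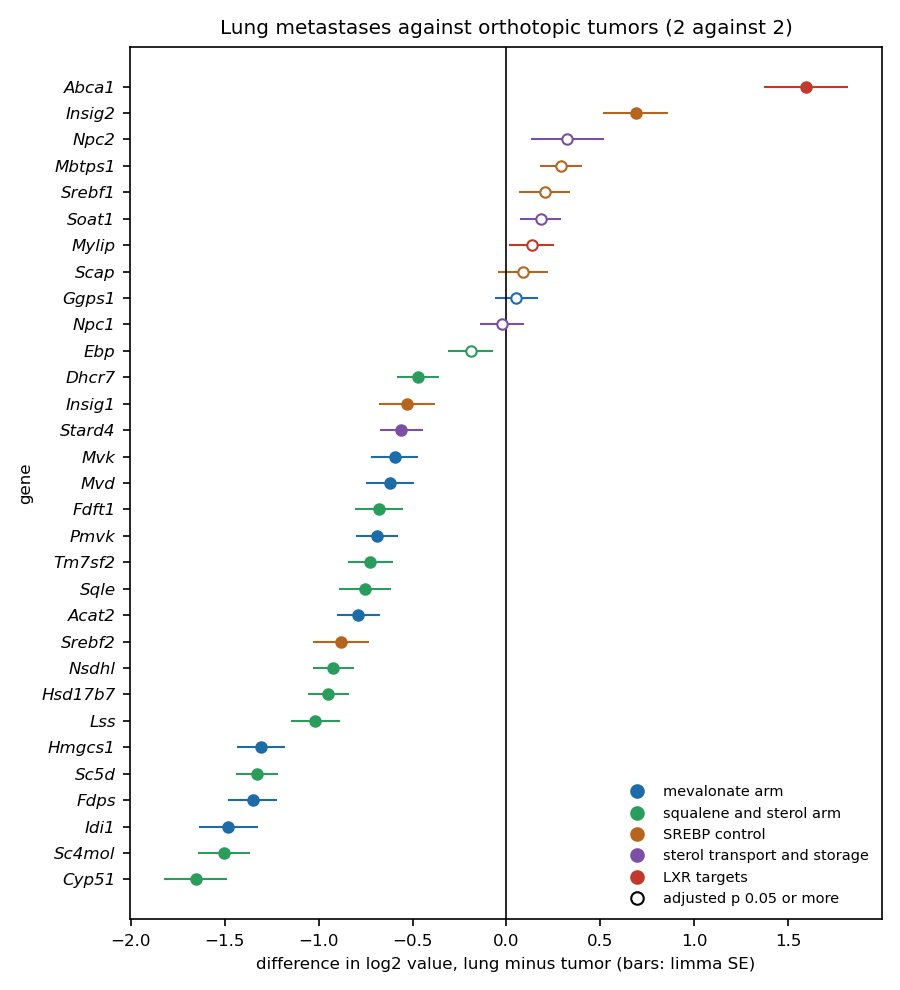
Difference in log2 value between lung metastases and orthotopic tumors (horizontal axis, 2 specimens each; bars are limma standard errors) for the 31 genes, coloured by role; open points had an adjusted p of 0.05 or more. The enzymes fill the left side down to Cyp51 at -1.65, and Abca1 is the point farthest right at 1.59.

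The specimens alone gave the spread for those calls. In the fit that also holds the 23 clones, with the same differences and a wider spread, 0 of the 31 genes were lower and 0 higher. With the B libraries only, 3 were lower and 1 higher, without Tumor_1 12 were lower and without Tumor_2 13, and in each setting run all 22 genes kept their direction.

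Among other lipid genes in that comparison, 8 of 14 of fatty acid synthesis were lower in lung metastases and 1 higher. Fads2 was at 870 and 884 counts in the tumors and 343 and 242 in the lung metastases (-1.42 ± 0.14, limma adjusted p = 0.000343). Elovl6 differed by -0.91 ± 0.13 and Scd1 by -0.73 ± 0.12. Of the 6 measured LXR, efflux and oxysterol genes 3 were higher and none lower, led by the exporter Abcg1 at 23.7 and 11.3 counts in the tumors and 166 and 152 in the lung metastases (1.73 ± 0.15, limma adjusted p = 0.000156). Cyp46a1 differed by 0.54 ± 0.13 and Nr1h2, which encodes LXR beta, by 0.46 ± 0.12. Lipa, the lysosomal lipase that frees cholesterol from its esters, differed by 0.77 ± 0.14. Tmem97, a sterol-regulated membrane protein, differed by -1.08 ± 0.15, and Nus1 of the isoprenoid branch, which serves dolichol synthesis, by -0.71 ± 0.12.

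Reads were counted without a stated strand setting, so a few values may hold reads of a neighbour. By the GENCODE annotation of mm10, Hmgcs1 shares 557 exon bases with Gm48342, Cyp51 166 with Akap9, Fdft1 774 with Ctsb, Ggps1 257 with Arid4b and Srebf1 109 with Rai1, each on the opposite strand. Npc1 shares 601 with Gm15956 and Rmc1, also on the opposite strand. Fdps shares 1124 with Gm43738 and Tm7sf2 532 with Vps51 on the same strand. Idi1, Sqle, Sc4mol, Srebf2, Insig1, Insig2 and Abca1 share none.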

How the data were processed

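RNA-seq was measured in 54 libraries, 2 per clone or specimen. Per the labels' protocols, cDNA was made by NuGEN Ovation amplification of total RNA. Reads were handled with Bowtie2, HTSeq and DESeq on build mm10, per the submitters' processing notes. Tool versions and the strand setting were not given in the sources used here. The authors deposited log2 values on a variance-stabilising scale, read as such from the values. Inverting that curve gave normalized counts and, for 100% of values within 0.01, whole reads, from which depth was taken. Since the deposited unit is log2, no count test was run. The table had 0 columns that no sample matched.

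Groups came from the labels. Genes with at least 10 normalized counts in at least 2 libraries of a comparison were tested with limma 3.58.1 in R 4.3.3, two-sided with a trend, adjusted over all genes tested by Benjamini-Hochberg at 0.05. The tests used libraries among clones and 1 value per clone or specimen between groups. Correlations used Python 3.11.15 and NumPy 2.4.6. Scripts were tested on simulated data. The alternatives were the filter, log2(normalized count + 1), quantile normalization, leaving out clones, libraries or specimens, only the libraries lettered B, a wider fit and a replicate block.

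The genes described and the lists were chosen with earlier results of these data known. All 31 genes could be named. Those given in full were up to 8 called with the largest difference per comparison, or up to 4 where none was called, and the 6 widest and 4 narrowest among clones. Of other genes, the 10 with the highest and the 5 with the lowest r with Hmgcs1, and up to 3 called genes per list and comparison, could be named. Some of these are not reported here. Over genes, the deviations of specimens with the same number had a correlation of -0.099. For libraries of E and T with the same letter it was -0.069. Numbers and letters were not treated as pairs in the main fits. These correlations cannot show whether specimens with the same number share a host. Sequences are from RefSeq (GRCm38.p6), and exon overlaps from GENCODE.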

Additional observations from a re-analysis of the deposited data

Results flagged for a closer look

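In each of the 3 groups of 4 libraries, the intravasating clones, the tumors and the lung metastases, a library was picked out where its gap to the nearest of the others exceeded the critical value of Dixon's test at the 95% level, as a share of the whole range of log2 values. Of 93 pairs of gene and group, 4 were picked out. The nominal rate of the test is about 1 in 20 for independent values. Here each group holds 2 libraries of each clone or specimen, so that rate need not hold. Library B of Lung_1 had 1008 counts of Fdft1, the squalene synthase, against 680 to 709 in the other lung libraries. Library B of E had 50.5 counts of Tm7sf2, a sterol reductase, against 80.3 to 84.1 in the other libraries of E and T, and 2323 counts of Soat1 against 1958 to 2014. Library B of Tumor_2 had 1299 counts of Lss against 1178 to 1195.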

How the results depend on the processing

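In lung metastases against tumors, the 20 lower and 2 higher genes became 3 and 1 with the B libraries only, and 0 and 0 in the fit that also holds the clones. They became 12 to 20 lower and 1 to 3 higher leaving out 1 specimen, where a lone specimen is assumed to vary like the others, and 1 higher without the filter on low values. With the specimen number as a replicate block they were 20 and 2. In lung metastases against clones, the 2 lower genes became 0 with the B libraries only and 0 to 0 leaving out either lung metastasis. Quantile normalization kept 2 of the 3 calls there, losing Acat2 (limma adjusted p = 0.0698), while another gene came in. By the rule for E and T, the 13 lower genes became 8 with a difference of at least 0.5 and 7 to 13 leaving out 1 library. The 0 higher became 1 on the scale of log2(normalized count + 1) and 0 to 1 leaving out 1 library. Between E and T, the 2 higher genes became 1 without the filter and 1 to 2 leaving out 1 library, the 17 lower became 12 to 16, and 13 to 18 of the 19 calls were kept, and the block on library letter changed no call (17 lower, 2 higher). Without clones P and S the r of Hmgcs1 turned to 0.099 for Ebp and 0.114 for Mbtps1, neither past the test. The cause of these changes was not tested. Depth limits Abca1 most, whose clones hold few reads.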
